A study of Rattus norvegicus with 6 samples.

Results

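Imprinted genes that set fetal growth and preadipocyte fate were examined in the mesenterial fat of newborn rats. Of the 10 genes listed for this purpose (Dlk1, H19, Meg3, Peg3, Mest, Plagl1, Cdkn1c, Grb10, Ndn and Gnas), 9 were found on the array. These are 9 of the 14217 genes that the platform annotation names by a probe set with exactly 1 gene symbol, and they were reached through 14 of the 31042 probe sets without controls. Peg3 had no probe set named in that way and is not analysed here. The animals were wildtype Sprague-Dawley rats, an outbred laboratory strain, whose dams had been fed a vitamin D deficient diet with 0 IU per kg (deficient group, 3 arrays) or a vitamin D adequate diet with 1000 IU per kg (adequate group, 3 arrays). Neither the litter nor the sex of the pups is labelled, and it is not said whether an array holds 1 animal or a pool. The p-values below therefore cover only the spread among these 6 samples, part of which may be technical.

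Imprinted genes are transcribed mainly or only from the copy inherited from 1 parent, a state fixed by DNA methylation laid down in the germ line. In mouse, Dlk1, Peg3, Mest, Plagl1 and Ndn are read from the paternal copy, and H19, Meg3, Cdkn1c and Grb10, in most tissues, from the maternal copy. Gnas is a compound locus whose main product is read from both copies in most tissues. As a group these genes are highly active before birth, are turned down after it, and include brakes on cell division, insulin signalling and fat cell differentiation.

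Dlk1 and Meg3 neighbour each other in 1 imprinted cluster and are read from opposite parental copies. Their promoters are shown because the difference between these transcripts is followed below. Each window runs from 250 bases before to 50 bases after the RefSeq start (GRCr8 build, plus strand), with every CpG, the site of DNA methylation, in capitals.
Dlk1 (chr6:134192347-134192646): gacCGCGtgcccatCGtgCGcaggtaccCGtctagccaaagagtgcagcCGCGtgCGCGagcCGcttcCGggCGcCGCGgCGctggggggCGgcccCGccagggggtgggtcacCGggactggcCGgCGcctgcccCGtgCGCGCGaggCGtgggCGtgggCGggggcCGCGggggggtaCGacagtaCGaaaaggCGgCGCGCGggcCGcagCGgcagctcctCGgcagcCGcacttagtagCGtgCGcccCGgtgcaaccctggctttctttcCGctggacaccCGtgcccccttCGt
Meg3 (chr6:134273806-134274105): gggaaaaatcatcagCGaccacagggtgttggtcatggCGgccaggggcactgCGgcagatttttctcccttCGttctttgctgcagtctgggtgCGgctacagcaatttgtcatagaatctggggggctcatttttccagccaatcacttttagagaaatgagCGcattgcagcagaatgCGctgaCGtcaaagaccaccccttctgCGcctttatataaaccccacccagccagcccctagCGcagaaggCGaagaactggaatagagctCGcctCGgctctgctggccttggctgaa

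The Dlk1 window held 45 CpGs, more than 98.3% of the 33469 promoters in the RefSeq table, and the Meg3 window 13, more than 64.7% of them. The table gave 10 promoters for 8 of the 10 listed genes, Peg3 included, with 12 to 45 CpGs each and a median of 18.0, against a median of 7.0 over all promoters. The letters TGCCGC, which the imprint-keeping factor ZFP57 binds when methylated, were searched on both strands. They occurred in 4 of the 10 windows (Plagl1, Dlk1, Meg3 and Grb10) and in 11.7% of all promoters of that length. H19 and Cdkn1c have no entry there. Methylation was not measured on these arrays, and a letter match is a description of sequence only.

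H19 and Meg3 are long noncoding RNAs that also carry microRNAs within their gene bodies. The mature forms in RefSeq are shown because a reading of either host transcript does not measure them; the capitals mark the seed, bases 2 to 8, which pairs with target messages.
rno-miR-675-5p (H19, chr1:207161800-207161821, minus strand): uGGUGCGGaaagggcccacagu
rno-miR-675-3p (H19, chr1:207161766-207161786, minus strand): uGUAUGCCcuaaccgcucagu
rno-miR-770-5p (Meg3, chr6:134298094-134298115, plus strand): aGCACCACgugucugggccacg
rno-miR-770-3p (Meg3, chr6:134298129-134298145, plus strand): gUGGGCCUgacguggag
The 4 seeds differ from one another, and 0 of the other mature miRNAs in the table of 724 share any of them.

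The measured values are MAS5 signals, linear intensities that condense the probes of a probe set to 1 number and are scaled per array. Array medians lay between 155 and 166 units. Among the deficient arrays, the first pair differed from array 3 in technical measures. The spiked bacterial controls of the hybridisation read 7.19 times the adequate mean on deficient array 1, 10.1 times on array 2 and 0.960 times on array 3, with 0.754 to 1.18 on the adequate arrays. The ratio of the 3' to the 5' probe set of beta-actin, which rises with degraded RNA, was 7.56, 6.80 and 2.35 on the deficient arrays and 2.39 to 4.81 on the adequate arrays. Of 14 adipose progenitor and fibroblast markers measured, 13 were above the filter on dim probe sets, a mean log2 signal of 6.46 (a signal of 88.2). Of 16 mature adipocyte markers measured, 9 were. Fabp4, the fatty acid binding protein of adipocytes, averaged 2156 units in the deficient and 2283 in the adequate group, but Adipoq, Plin1, Lep and Pparg were below the filter. Adipoq, the adiponectin gene, read 11.1, 47.8 and 21.1 units on the deficient arrays and 18.0, 26.9 and 22.5 on the adequate arrays.

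Most of the 9 imprinted genes followed here were among the brightest transcripts of this tissue. By the brightest tested probe set, the median of mean log2 signals was 12.99 over these 9 genes. Over 28 other imprinted genes, listed further below, it was 9.74. For 8 of the 9 genes the brightest probe set lay above 97.2% of all probe sets without controls on every array. Gnas, which encodes the stimulatory G protein alpha subunit, was highest, with percentiles of 99.6 to 99.8 across the 6 arrays. In falling order of mean log2 signal it was followed by H19, Cdkn1c, Plagl1, Grb10, Meg3, Mest and Ndn. Dlk1, also known as preadipocyte factor 1, came last, with percentiles of 86.3 to 91.6. Probe sets differ in how well they bind their targets, so this is an order of signals and not of transcript numbers. H19 and Cdkn1c, at mean log2 signals of 13.69 and 13.68, and Mest and Ndn, at 12.31 and 12.19, were closer together than the spread between arrays. The second probe set of Meg3, 1377008_at, had a mean log2 signal of 12.09, close to the 12.89 of 1388357_at. The other probe sets of Grb10 and Gnas were far dimmer, with means of 9.61 and 6.42 for Grb10 1397211_at and 1394610_at and of 8.66 and 7.71 for Gnas 1387906_a_at and 1390263_at.

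**Figure D1:**
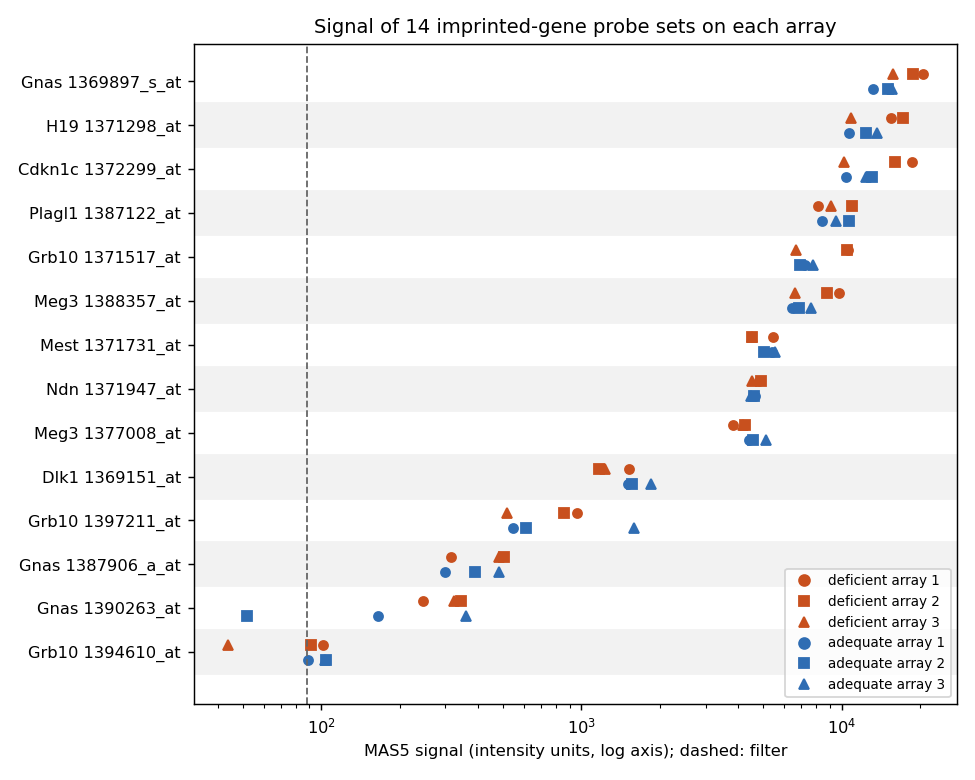
MAS5 signal (intensity units, log axis) of the 14 probe sets, sorted by mean log2 signal, with deficient arrays in orange above adequate arrays in blue and the marker shape giving the array number. The dashed line is the filter at 88.2 units; Grb10 1394610_at averages below it, and 9 probe sets of 8 genes read 3816 or more on every array.

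No imprinted gene differed between the diets past the adjusted threshold. With limma, 0 of the 13 tested member probe sets had an adjusted p under 0.05, against 0 of 18625, or 0%, over all tested probe sets. Their adjusted p ranged from 0.366 for Dlk1 to 0.962 for Plagl1. At an unadjusted p under 0.05 the count was also 0 of 13, against 14.2% of all tested probe sets, and other settings gave between 0 and 5. The 5 came under array weights and without deficient array 3, where 6678 and 6572 of all 18625 tested probe sets were counted. The groups did not overlap for 2 of the 13, Gnas 1369897_s_at and Meg3 1377008_at, where 17.4% of all tested probe sets had no overlap. Taking the brightest probe set of each gene, 6 of 9 had higher and 3 lower values in the deficient group, with a median log2 difference of 0.23. After quantile normalization, which gives every array the same distribution, 1 was higher and 8 were lower, with a median of -0.13. The median over all tested probe sets was -0.05 as deposited and -0.03 after quantile normalization.

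Cdkn1c and Grb10 are brakes on growth, the first an inhibitor of cyclin-dependent kinases and the second an adaptor that dampens signals from the insulin and IGF1 receptors. Cdkn1c read 18630, 15979 and 10198 units on deficient arrays 1 to 3, against 10415, 13063 and 12359 on adequate arrays 1 to 3. Grb10, by its brightest probe set, read 10587, 10527 and 6664 units on the deficient arrays, against 7205, 6928 and 7737 on the adequate arrays. In both genes deficient arrays 1 and 2 were above every adequate array and deficient array 3 was below every one, so the groups overlap. The log2 difference, deficient minus adequate, was 0.28 ± 0.23 (SE) for Cdkn1c and 0.31 ± 0.20 for Grb10, with adjusted p of 0.549 and 0.455. On deficient array 3 alone it was -0.22 and -0.13, and after quantile normalization -0.13 and 0.03.

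H19 and Meg3, the noncoding RNAs read from the maternal copy, had a similar arrangement of arrays. H19 read 15468, 17240 and 10895 units on the deficient arrays and 10685, 12367 and 13675 on the adequate arrays. Meg3 1388357_at read 9756, 8773 and 6634 units on the deficient arrays, against 6438, 6841 and 7655 on the adequate arrays. Deficient array 3 lay inside the adequate range for both, and the other deficient arrays lay above it. The log2 difference was 0.23 ± 0.21 (SE) for H19 and 0.25 ± 0.18 for Meg3, with adjusted p of 0.596 and 0.503. After quantile normalization these were -0.16 and -0.01, and on deficient array 3 alone -0.16 and -0.07.

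Gnas was the member whose brightest probe set had all deficient arrays above the adequate ones. It read 20511, 18849 and 15748 units on the deficient arrays and 13154, 15020 and 15561 on the adequate arrays, with deficient array 3 only just above adequate array 3. The log2 difference was 0.33 ± 0.18 (SE), a fold of 1.26 with an adjusted p of 0.399. It was 0.12 on deficient array 3 alone and -0.11 after quantile normalization. The 5 probe sets of Gnas, H19, Cdkn1c, Grb10 and Meg3 described so far passed the adjusted threshold when deficient array 3 was left out, with log2 differences of 0.41 to 0.54 and adjusted p of 0.00784 to 0.0394. In that setting 5 of the 13 tested member probe sets and 3614 of all 18625 passed. Only deficient arrays 1 and 2 then remain, which had the highest hybridisation controls and beta-actin ratios of the 6 arrays. On these 2 arrays, probe sets at or above the 97th percentile of mean log2 signal had medians of 0.32 and 0.34 relative to the adequate mean. Their part in these 5 differences was not tested.

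Dlk1, a membrane protein with EGF-like repeats that holds preadipocytes back from differentiation, had the smallest unadjusted p of the members, 0.0706. It read 1522, 1172 and 1233 units on the deficient arrays, against 1511, 1569 and 1852 on the adequate arrays. Deficient arrays 2 and 3 were below every adequate array, while deficient array 1 lay within the adequate range, close to its lower end. The log2 difference was -0.33 ± 0.16 (SE, 95% confidence interval -0.70 to 0.03), a fold of 0.794 with an adjusted p of 0.366. It stayed below 0 in each of the 17 other settings run, between -0.45 without deficient array 1 and -0.24 without adequate array 3. The filter, variance model and replicate block settings leave the difference at -0.33 by design, so they are no check of its sign. The difference was -0.41 on deficient array 3 alone and -0.30 after quantile normalization. Relative to the adequate mean, Dlk1 was at -0.106, -0.482 and -0.409 on deficient arrays 1 to 3. Tested probe sets of like signal, near a mean log2 signal of 10.57, had medians of -0.115, -0.115 and 0.008 there. The part of that shift in the Dlk1 difference was not tested.

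Mest, an enzyme-like protein of the endoplasmic reticulum whose expression goes with fat cell enlargement in mouse, read 5431, 4536 and 4543 units on the deficient arrays and 5421, 5031 and 5557 on the adequate arrays. Here too deficient arrays 2 and 3 were below every adequate array and deficient array 1 was not. The log2 difference was -0.15 ± 0.15 (SE), with an adjusted p of 0.641, and -0.29 after quantile normalization. Plagl1, a zinc finger transcription factor that in mouse acts on other imprinted genes, read 8090, 11003 and 9122 units on the deficient arrays and 8390, 10664 and 9503 on the adequate arrays. Its groups lay over each other, at -0.02 ± 0.18 on the log2 scale. Ndn, a MAGE family protein that restrains preadipocyte division in mouse, varied least of all members. It read 4835, 4882 and 4519 units on the deficient arrays and 4657, 4623 and 4473 on the adequate arrays, a log2 difference of 0.05 ± 0.14 with a 95% confidence interval of -0.27 to 0.36.

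**Figure D2:**
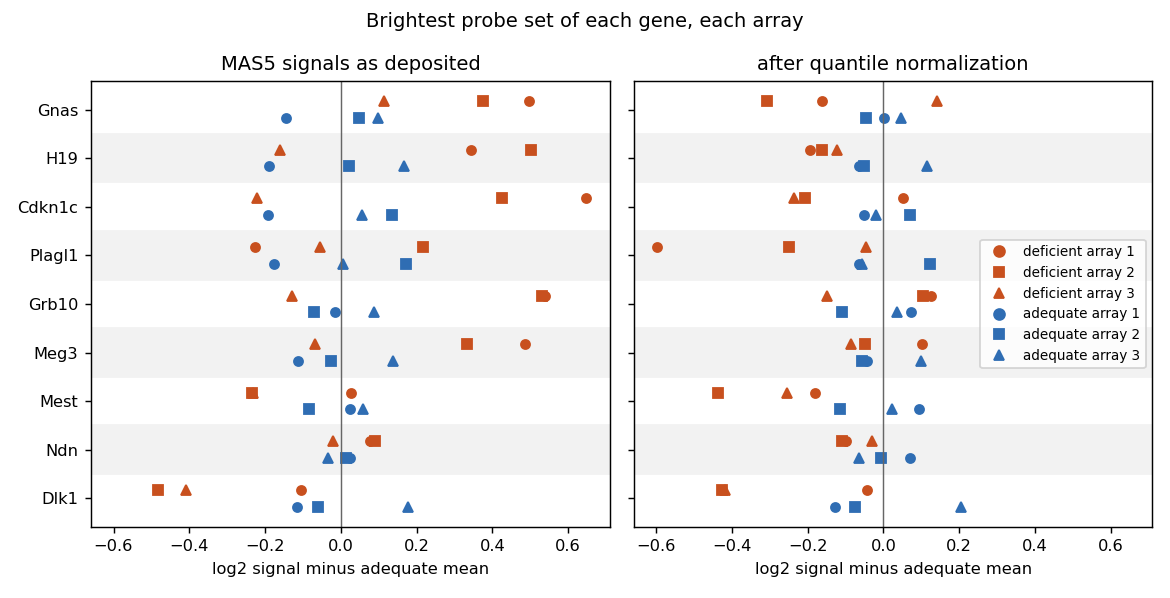
Log2 signal minus the adequate mean for the brightest probe set of each of the 9 genes, with deficient arrays in orange above adequate arrays in blue and marker shape for the array number, as deposited (left) and after quantile normalization (right). As deposited, deficient arrays 1 and 2 lie at 0.33 to 0.65 for Gnas, H19, Cdkn1c, Grb10 and Meg3; after quantile normalization they lie between -0.31 and 0.13 for these genes, while Dlk1 and Mest keep their lower values on deficient arrays 2 and 3.

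By parental copy, and by the brightest probe set of each gene, the 4 maternally expressed genes were at 0.23 to 0.31 on the log2 scale and the 4 measured paternally expressed genes at -0.33 to 0.05, with medians of 0.27 and -0.08. These groups differ in signal as well: the median of the mean log2 signals was 13.33 in the maternally expressed genes and 12.25 in the paternally expressed genes. After quantile normalization the medians were -0.07 and -0.29, and on deficient array 3 alone both were -0.14. Whether parental copy or signal level goes with the difference cannot be told apart in 8 genes.

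Across the whole table, the brightest probe sets as a set read above the adequate mean on deficient arrays 1 and 2 but not on array 3. Probe sets of middling signal read below it on arrays 1 and 2, with medians of -0.17 and -0.18 at a mean log2 signal near 9.19. Among the 932 tested probe sets at or above the 97th percentile of mean log2 signal, a limit chosen after the members' values were seen, the median log2 difference was 0.21, and 75.1% had higher values in the deficient group, against 44.7% of all tested probe sets. Relative to the adequate mean, the bright probe sets had medians of 0.32, 0.34 and 0.00 on deficient arrays 1, 2 and 3. The members' medians on the same arrays were 0.34, 0.33 and -0.13. For 6 of the 9 genes deficient arrays 1 and 2 were both above every adequate array, a pattern held by 21.6% of all tested probe sets. That share covers all signal levels, and the share among probe sets as bright as the members was not computed. Plagl1, at a mean log2 signal of 13.20, was at -0.23 and 0.22 on deficient arrays 1 and 2. Mest, also past the 97th percentile, was at 0.03 and -0.23 on these arrays, and Ndn, past it too, at 0.08 and 0.09. All of these values were below the medians of the bright probe sets.

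**Figure D3:**
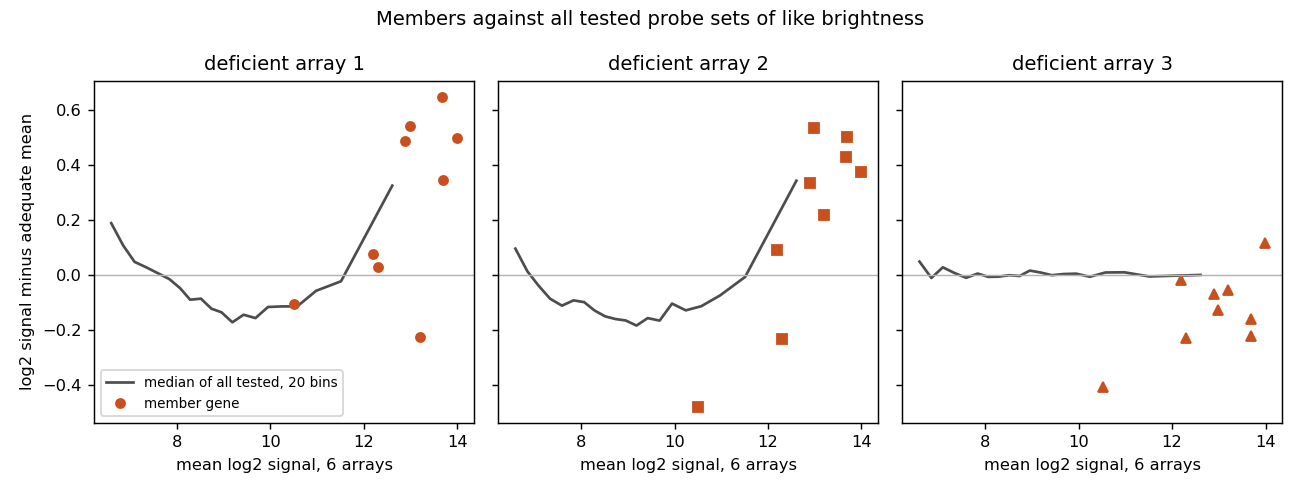
Log2 signal minus the adequate mean on each deficient array, against mean log2 signal over the 6 arrays. The line joins the medians of 20 bins of all tested probe sets and the points are the 9 member genes; the line turns up at the bright end on deficient arrays 1 and 2 but not on deficient array 3, where 8 of the 9 genes lie below the adequate mean.

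Differences between transcripts were then taken within each array, so that a factor shared by a whole array drops out. Dlk1 minus Meg3 1388357_at, in log2 signal, was -2.68, -2.90 and -2.43 on the deficient arrays and -2.09, -2.12 and -2.05 on the adequate arrays. All 3 deficient arrays were below all 3 adequate arrays, and the adequate values lay within a narrow band. The means were -2.67 ± 0.24 (SD, n = 3) in the deficient and -2.09 ± 0.04 (SD, n = 3) in the adequate group, a difference of -0.58. The exact permutation test, two-sided, gave p = 0.1, the smallest that 3 against 3 arrays allow. Adjusted over the 7 within-array differences examined, that p was 0.35. The difference was -0.34 on deficient array 3 alone, -0.29 after quantile normalization and -0.36 with the mean of both Meg3 probe sets. With Meg3 1377008_at in place of 1388357_at, the values were -1.33, -1.86 and -1.76 on the deficient arrays and -1.54, -1.54 and -1.47 on the adequate arrays. Deficient array 1 was then the highest of all, so the groups overlap, with a difference of -0.13 and an exact permutation p of 0.4. Meg3 1388357_at has the higher signal, and bright probe sets as a whole read higher on deficient arrays 1 and 2; the part of that in this difference was not tested.

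H19 and Igf2, the fetal growth factor gene, are also read from opposite parental copies of 1 cluster and share enhancers in mouse. Igf2 1367571_a_at read 19294, 21934 and 15040 units on the deficient arrays and 13692, 16205 and 17243 on the adequate arrays, the same order of arrays as H19. H19 minus Igf2 was -0.32, -0.35 and -0.47 on the deficient arrays and -0.36, -0.39 and -0.33 on the adequate arrays. The groups overlap, with means of -0.38 ± 0.08 and -0.36 ± 0.03 (SD, n = 3 each) and p = 0.9 in the exact permutation test. Over the 6 arrays H19 spanned 0.69 and Igf2 0.68 on the log2 scale, and their difference spanned 0.15.

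**Figure D4:**
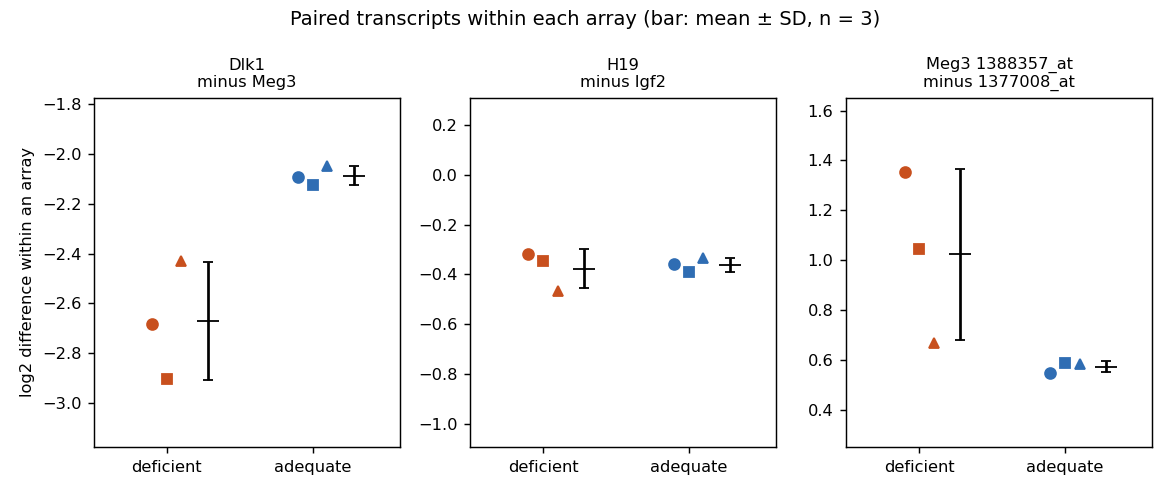
Log2 difference between 2 probe sets within each array, for Dlk1 minus Meg3 1388357_at, H19 minus Igf2, and the 2 Meg3 probe sets; points are arrays (circle, square and triangle for array 1, 2 and 3), and bars are the mean and SD (n = 3). Each panel spans 1.4 log2 units; the groups separate in the first and the third panel, at differences of -0.58 and 0.45, and overlap for H19 minus Igf2.

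Probe sets of 1 gene did not always run together. Meg3 1377008_at read 3816, 4248 and 4172 units on the deficient arrays and 4408, 4554 and 5114 on the adequate arrays, so every deficient array was lower, whereas Meg3 1388357_at was higher on deficient arrays 1 and 2. The log2 difference of 1377008_at was -0.20 ± 0.15 (SE), with an adjusted p of 0.503. Meg3 1388357_at minus 1377008_at was 1.35, 1.05 and 0.67 on the deficient arrays and 0.55, 0.59 and 0.58 on the adequate arrays, again without overlap, at an exact permutation p of 0.1. Which Meg3 isoforms each probe set reads is not given in the sources used here. With opposite signs in its 2 probe sets, the direction of Meg3 is uncertain at the level of the gene.

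Grb10 1397211_at read 961, 856 and 518 units on the deficient arrays and 546, 611 and 1592 on the adequate arrays, with adequate array 3 far above the rest, a log2 difference of -0.11 ± 0.38 (SE). Grb10 1394610_at, below the filter, averaged 79.1 units in the deficient and 98.9 in the adequate group. Gnas 1387906_a_at was at 0.14 ± 0.25, and Gnas 1390263_at at 1.04 ± 0.55 with an adjusted p of 0.382. The value of 1390263_at rests on adequate array 2, at 51.9 units, with the other 5 arrays between 165 and 361; without that array it was 0.30.

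The transcripts most like 3 of the members over the 6 arrays were found by the root mean square difference of log2 signals, each centred on its own mean. For H19 the closest of all named genes was Igf2, at 0.05, followed by Rpsa, a ribosomal protein gene, at 0.05 and Nkd1, a Wnt pathway inhibitor, at 0.06, against a median of 0.38 over all named probe sets. For Dlk1 they were Aak1, Lsm12 and Trpm4, at 0.04, 0.05 and 0.05, and for Meg3 1388357_at Cisd2, Fut8 and Uqcrq, at 0.02, 0.03 and 0.04. All of these rankings share the same 6 arrays and with them the contrast of deficient arrays 1 and 2 to the rest.

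Other genes reported as imprinted in mouse, in at least 1 tissue, numbered 49 in the list used; 37 had a probe set and 28 were tested. Of these, 15 had higher and 13 lower values in the deficient group, with a median log2 difference of 0.04. None passed with limma. At an unadjusted p under 0.05 there were 3 higher and 4 lower, against 6.03% and 8.18% of all tested probe sets. The groups did not overlap for 5 higher and 3 lower genes, where all tested probe sets gave 6.55% and 10.8%.

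Ube3a, a ubiquitin ligase gene imprinted in neurons, had the smallest p of these genes. Ube3a 1391393_at read 2702, 2803 and 1603 units on the deficient arrays and 1378, 1272 and 1114 on the adequate arrays, a log2 difference of 0.88 ± 0.22 (SE) with an adjusted p of 0.344. Its second tested probe set, 1382741_at, was also without overlap, at 0.44 ± 0.16, and 1383909_at was at 0.34 ± 0.27. Blcap, at -0.62 ± 0.20, was lower on every deficient array, with 603, 437 and 675 units against 820, 815 and 965, though its dimmer tested probe set was at 0.12. Copg2, a coat protein gene beside Mest in mouse, was at -0.59 ± 0.21, and Nap1l4, a histone chaperone gene in the Cdkn1c cluster, at -0.45 ± 0.19. Dhcr7, of cholesterol synthesis, was at -0.64 ± 0.23 and Casd1, a sialic acid acetyltransferase gene, at 0.53 ± 0.20. The other tested Casd1 probe set was at 0.03 ± 0.18. The groups overlap for Copg2, Nap1l4, Dhcr7 and Casd1. Relative to the adequate mean, deficient arrays 1 to 3 were at -0.69, -0.93 and -0.15 for Copg2 and -0.73, -0.58 and -0.02 for Nap1l4. They were at -0.26, -0.92 and -0.74 for Dhcr7 and at 0.72, 0.79 and 0.08 for the brighter Casd1 probe set. Igf2r, the receptor that clears IGF2, was at 0.04 ± 0.15 and 0.24 ± 0.20 by its 2 probe sets, and Dio3, the thyroid hormone inactivating enzyme of the Dlk1 cluster, was below the filter on each array.

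**Figure D5:**
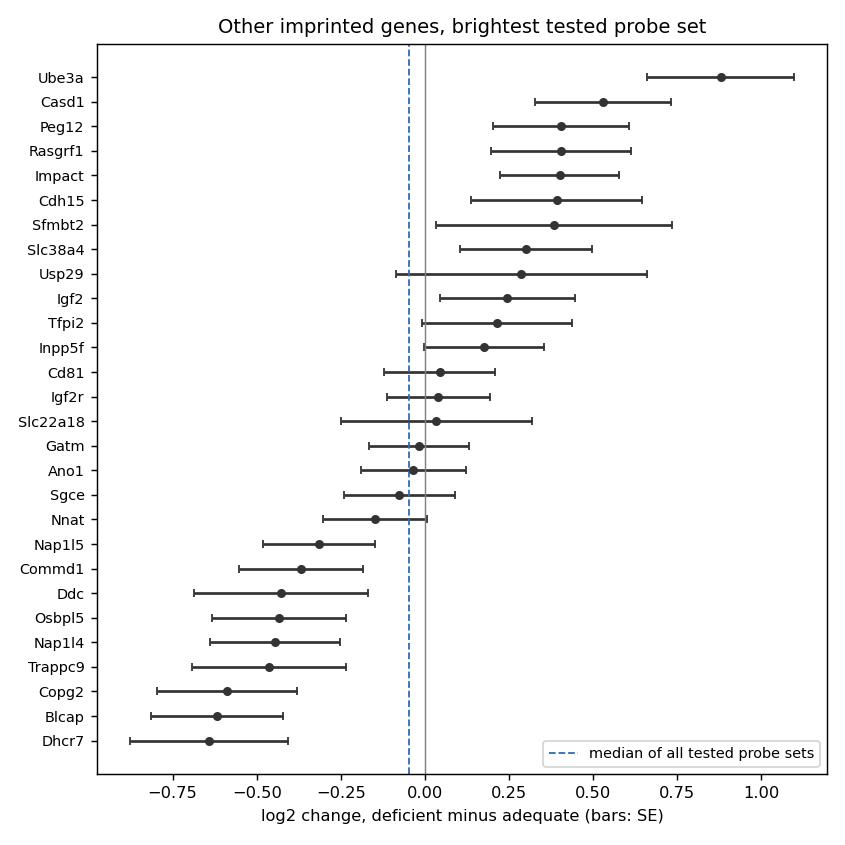
Log2 difference, deficient minus adequate, of the brightest tested probe set of 28 other imprinted genes, with SE bars, sorted from highest to lowest. The dashed line is the median of all tested probe sets, -0.05; values run from 0.88 for Ube3a to -0.64 for Dhcr7, and none passed the adjusted threshold.

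Markers of the cells that carry these transcripts were set beside them. In bulk tissue, fewer cells of a type and less RNA per cell cannot be told apart. The summed signal of the 14 measured progenitor and fibroblast markers was 156000, 159328 and 79691 units on the deficient arrays and 78760 to 92631 on the adequate arrays, so it was high on the same deficient arrays 1 and 2 as H19, Cdkn1c and Grb10. It was led by Col3a1, Col1a1 and Lum, matrix genes at the top of the signal range. Of the list's 13 tested markers, 7 had higher and 6 lower values in the deficient group, with a median log2 difference of 0.15 and 0 past the adjusted threshold. Thy1, a surface antigen of fibroblasts, was lower on every deficient array, with 471, 348 and 684 units against 1033, 692 and 1062 on the adequate arrays, at -0.92 ± 0.26 (SE) with an adjusted p of 0.344. The part of these markers in the members' values was not tested. Fetal liver also expresses Dlk1, H19 and Igf2, and the sum of 9 hepatocyte markers was 1332 to 2947 units on the deficient arrays and 1430, 2114 and 6954 on adequate arrays 1 to 3. Of these markers 7 were tested, all 7 with lower values in the deficient group and 0 past the adjusted threshold. Without adequate array 3, 4 had higher and 3 lower values in the deficient group; their part in the members' values was not tested. Adequate array 3, the highest for those markers, also had the highest Dlk1 signal, and without it the Dlk1 log2 difference was -0.24. On that array H19 and Igf2 read 13675 and 17243 units, the highest of the adequate group. Both read higher still on deficient arrays 1 and 2. The sums of 8 striated muscle markers were 5717 to 8388 units on the deficient and 7545 to 8508 on the adequate arrays, and those of 9 neuron and glia markers 14918 to 16708 and 15970 to 17084. The sums of 6 mesothelial markers were 6550 to 8849 and 8317 to 9279 units, and those of 6 endothelial markers 8509 to 8987 and 9351 to 10151. All 5 measured adrenal cortex markers were below the filter.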

How the data were processed

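Total RNA of mesenterial adipose tissue from newborn rats (6 samples) was hybridised, biotin-labelled, to Affymetrix Rat Genome 230 2.0 arrays, per the labels. The values the authors deposited are intensity signals on a linear scale. MAS5 and Affymetrix Expression Console are the tools listed in the submitters' processing notes, which give no versions or settings. A 2% trimmed mean of 500 on each array, computed here, shows per-array scaling, which removes differences in total RNA.

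No test used the 57 control probe sets. Signals were log2 transformed with no offset, and probe sets with a mean under the 40th percentile were not tested, which left 18625 of 31042. Members were matched by the platform annotation (20826 probe sets with 1 symbol, 436 with several, 9780 with none), and all 9 symbols found match the GRCr8 RefSeq gene table by Entrez identifier. Deficient minus adequate was fitted with limma 3.58.1 in R 4.3.3 (lmFit, eBayes with a variance trend, two-sided, Benjamini-Hochberg over all tested probe sets). Folds are differences of mean log2 signals. Differences within an array were tested with exact permutation tests; those between probe sets of 1 gene, that of Dlk1 to Meg3 1377008_at and the marker counts without an array were added after the data were seen. The fit was tested on simulated data with independent noise in each probe set. No shift shared by the bright probe sets of an array was simulated, so the test does not cover that feature of these arrays. Precision is limited by there being only 3 arrays in each group. The members, the gene lists and the alternatives were chosen with earlier results of these data known.

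All member probe sets are named. Of the other imprinted genes, up to 6 with the smallest unadjusted p were named, plus Igf2, Igf2r and Dio3; of each member asked for (Dlk1, H19, Meg3), the 3 most alike genes; of marker lists, up to 3 by mean signal. Adipoq, Plin1, Lep, Pparg and Thy1 were named after their values were seen. Alternatives changed the scaling (quantile normalization or median centring), the filter (none, or the 60th percentile), the log offset (50), the variance model (no trend, or robust), the array weights or the pairing (replicate number as block). Others left out 1 array at a time, set deficient array 3 alone against the adequate arrays (its spread is then assumed to be like theirs), added the mean log2 signal of 18 hybridisation control probe sets as a covariate, or averaged the probe sets of a gene. Figures were drawn with matplotlib 3.10.9.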

Additional observations from a re-analysis of the deposited data

How the results depend on the processing

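The count of probe sets past the adjusted threshold was 0 apart from 3462 under array weights and 3614 without deficient array 3, so that leaving out an array gave 0 to 3614. For the member probe sets it was 1 under array weights (Grb10 1371517_at) and 0 to 5 when an array was left out. Probe sets with an unadjusted p under 0.05 numbered 2647, and 6678 under array weights, 1214 with deficient array 3 alone, 788 under the hybridisation covariate and 906 to 6572 when an array was left out. Members in that count were 2 after quantile normalization (Mest and Meg3 1377008_at), 5 under array weights, 1 with deficient array 3 alone (Dlk1) and 0 to 5 when an array was left out. The members' median was -0.13 after quantile normalization, -0.13 with deficient array 3 alone and -0.12 under the hybridisation covariate, against 0.23. It was 0.37 under array weights and 0.049 when the probe sets of a gene were averaged. Leaving out an array gave 0.092 to 0.41: 0.10 without deficient array 1, 0.092 without deficient array 2, 0.41 without deficient array 3 and 0.13 without adequate array 1. That of the other imprinted genes was 0.04, and -0.034 under the stricter filter, -0.037 with deficient array 3 alone, -0.056 under the hybridisation covariate and -0.016 to 0.05 when an array was left out.

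Of the 13 tested member probe sets, Dlk1, Mest, Meg3 1377008_at and Gnas 1390263_at had 1 direction in all settings in which they were tested. The other member probe sets turned in at least 1 setting. Gnas 1390263_at was not tested under the stricter filter. The filter, variance model and replicate block settings leave a log2 difference as it is, so they cannot turn a direction. After quantile normalization Gnas 1369897_s_at was at -0.11, H19 at -0.16, Ndn at -0.080, Cdkn1c at -0.13 and Meg3 1388357_at at -0.011. With deficient array 3 alone H19 was at -0.16, Grb10 1371517_at at -0.13, Ndn at -0.021, Cdkn1c at -0.22 and Meg3 1388357_at at -0.069. Under the hybridisation covariate these were -0.17, -0.093, -0.012, -0.20 and -0.051. Under array weights Plagl1 was at 0.090 and Grb10 1397211_at at 0.17. Over the settings that leave out an array, Plagl1 ranged from -0.14 to 0.081, Grb10 1397211_at from -0.39 to 0.38 and Gnas 1387906_a_at from -0.034 to 0.36. H19 minus Igf2 was 0.071 after quantile normalization and ranged from -0.046 to 0.028 when an array was left out. Dlk1 minus Meg3 was below 0 in all settings run, from -0.70 to -0.47 when an array was left out. It was -0.13 with the other Meg3 probe set, an alternative chosen after seeing the data. Median centring and the replicate block cannot change this within-array difference. The causes were not tested.

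The replicate numbers share no stated litter or batch. Deviations of same-numbered arrays correlated at 0.11, 0.15 and 0.01 across probe sets, and adequate array 3 correlated best with deficient array 1. With the replicate number as a block, 0 probe sets passed the adjusted threshold, 3235 had an unadjusted p under 0.05, 0 of them members, and Dlk1 minus Meg3 had an exact p of 0.25, the smallest that 3 pairs allow.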
